A study of Mus musculus with 68 samples.

Results

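Best1, Muc2, Slc6a19, Stpg1, Ntn5 and Abhd11os are 6 genes of the 18088 in the deposited table that stood higher in the prefrontal cortex of Adnp mutant mice. They were listed together as known from retina, gut, kidney and other tissues and low in brain. Only prefrontal cortex was measured, so that listing was not checked, and no such tissue is named below for Ntn5 or Abhd11os. The 6 genes were chosen by symbol from that listing and because their values were higher in mutant libraries. The difference between genotypes is thus given for them as a description, without a test. All 6 passed the filter on low values (a mean of at least 5 normalized counts, which 17922 genes met). The 68 libraries are bulk RNA-seq of prefrontal cortex taken at postnatal day 25 from mice on the C57BL/6J background, after drug or vehicle had reached the pups through the mother's milk from day 3 to day 24. The mice were heterozygous for Adnp (HT, 35 libraries) or wild type (WT, 33 libraries). HT mice received vehicle (16 libraries), fluoxetine (10) or lithium (9), and WT mice vehicle (15), fluoxetine (10) or lithium (8), with females and males in each group. The labels name neither the mutant Adnp allele nor which pups shared a mother, so p-values measure the spread between these libraries.

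Adnp encodes a zinc finger and homeodomain protein that binds chromatin and, in mouse embryonic stem cells, represses genes together with the remodeller Chd4 and heterochromatin proteins. Best1 encodes bestrophin, a calcium-activated chloride channel of the basolateral membrane of the retinal pigment epithelium. Muc2 encodes the gel-forming mucin that goblet cells secrete to build the mucus layer of the intestine. Slc6a19 encodes B0AT1, the sodium-dependent carrier for neutral amino acids in the brush border of kidney tubule and small intestine. Stpg1 encodes a protein with proline-glycine repeats named after the sperm tail. Ntn5 encodes a short member of the netrins, secreted proteins that guide axons and migrating cells. Abhd11os is an RNA gene whose last bases overlap the end of Abhd11 on the other strand, and its annotation in GENCODE vM21 is a transcribed unitary pseudogene.

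On GRCm38, Best1 lies on chromosome 19 (9985174 to 10001633, minus strand), Muc2 on chromosome 7 (141690340 to 141754693, plus strand) and Slc6a19 on chromosome 13 (73679745 to 73704865, minus strand). Stpg1 lies on chromosome 4 (135494790 to 135537803, plus strand), Ntn5 on chromosome 7 (45684022 to 45694556, plus strand) and Abhd11os on chromosome 5 (135012114 to 135013253, minus strand). The genes thus sit on 5 chromosomes, and the pair on chromosome 7 is far apart.

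Promoter windows were read because all 6 genes stood higher in HT libraries. All 6 matched the RefSeq promoter table of GRCm38.p6, which gives 250 bases before and 50 bases after a gene's start. The windows of 4 of them are shown in the gene's own direction: Best1, whose window also holds the start of its head-to-head neighbour Rab3il1; Muc2; Slc6a19, which differed most between genotypes; and Ntn5, whose window lies inside the antisense gene Sec1. The RefSeq starts of Slc6a19, Stpg1 and Abhd11os lie inside their GENCODE genes, downstream of the first base. Capitals mark CCCTC and its reverse complement GAGGG, letters of the core of the CTCF motif. They also mark TAATCC, letters of a site of retinal homeodomain factors such as Otx2, and TATAAA, letters of the TATA box motif.
Best1, chr19:10001584-10001883, minus strand: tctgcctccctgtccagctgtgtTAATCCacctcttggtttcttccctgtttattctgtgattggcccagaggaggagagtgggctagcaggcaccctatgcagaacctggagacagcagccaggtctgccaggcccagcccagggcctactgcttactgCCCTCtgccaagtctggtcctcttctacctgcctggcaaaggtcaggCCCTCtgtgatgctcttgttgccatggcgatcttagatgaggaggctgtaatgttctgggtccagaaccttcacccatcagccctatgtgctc
Muc2, chr7:141690090-141690389, plus strand: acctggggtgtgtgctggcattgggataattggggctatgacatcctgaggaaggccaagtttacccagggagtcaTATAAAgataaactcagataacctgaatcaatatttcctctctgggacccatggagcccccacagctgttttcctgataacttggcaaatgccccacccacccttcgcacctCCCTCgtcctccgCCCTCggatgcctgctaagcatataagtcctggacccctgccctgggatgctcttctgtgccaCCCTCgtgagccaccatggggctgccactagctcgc
Slc6a19, chr13:73692587-73692886, minus strand: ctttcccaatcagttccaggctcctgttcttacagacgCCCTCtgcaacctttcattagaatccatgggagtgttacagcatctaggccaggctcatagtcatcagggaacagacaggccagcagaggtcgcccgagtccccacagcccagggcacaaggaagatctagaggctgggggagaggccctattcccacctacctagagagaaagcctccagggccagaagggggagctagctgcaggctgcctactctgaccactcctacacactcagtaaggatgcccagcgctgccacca
Ntn5, chr7:45683772-45684071, plus strand: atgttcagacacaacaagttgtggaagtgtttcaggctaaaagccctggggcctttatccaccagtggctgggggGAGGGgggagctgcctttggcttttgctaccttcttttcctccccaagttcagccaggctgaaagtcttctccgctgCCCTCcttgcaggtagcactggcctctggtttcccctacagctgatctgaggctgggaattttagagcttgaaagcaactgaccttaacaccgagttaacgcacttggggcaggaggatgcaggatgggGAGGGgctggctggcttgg

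CCCTC was present on either strand in 6 of 6 windows, and 66.0% of all 32851 mouse promoters in the table hold it. TAATCC stood in the Best1 window, at position -227 from the start, and in 7.06% of all promoters. TATAAA stood in the Muc2 window, at position -174, and in 13.6% of all promoters. A match of letters so far from the start does not show a working TATA box. None of the 6 windows held TTTGGCGC or TTTCGCGC (letters of E2f sites, in 0.514% and 0.323% of promoters), CATGTG (an E-box of Mitf, 14.2%), TTTATG (a Cdx site, 11.9%) or the Hnf1 motif (3 of all promoters). Both strands were searched for every motif. CpG dinucleotides numbered 1 in the Best1 window, 3 in Ntn5, 4 in Slc6a19, 6 in Muc2, 7 in Abhd11os and 9 in Stpg1, where the median of all promoters was 7 (quartiles 3 and 20). Of the 8 motifs searched, the 6 windows thus shared CCCTC, a common one. None held more than 9 CpG, and 54.2% of all promoters held fewer than 9.

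At this depth (22.4M to 37.5M reads per library), each of the 6 had reads in every WT library, so none was without assigned reads in WT cortex. The fewest were 1 read of Slc6a19 and 2 reads of Abhd11os, and Stpg1 had at least 15. Whether so few reads stand for transcripts of these genes was not tested. Levels were low. Per kilobase of merged exons, the means in HT vehicle libraries ran from 4.21 normalized counts for Muc2 to 44.0 for Abhd11os, against 1.1 for Slc6a19 to 12.3 for Abhd11os in WT vehicle libraries. In HT vehicle libraries these levels stood at percentiles 7.24 (Muc2) to 35.9 (Abhd11os) of 17911 genes, and in WT vehicle libraries at percentiles 0.497 (Slc6a19) to 19.0 (Abhd11os). The median gene had 98.1 per kilobase in HT vehicle libraries and 99.3 in WT vehicle libraries, so the 6 genes stayed below the median in both. The summed level of 6 cortical neuron genes lay between 63680 and 80612 normalized counts in HT libraries and between 62982 and 82475 in WT libraries. Markers of adjoining tissue varied far more in both genotypes: olfactory bulb sums ran from 226 to 20567 in HT and from 199 to 20653 in WT libraries, striatal neuron sums from 1564 to 10462 in HT and from 1610 to 11177 in WT libraries, and choroid plexus sums from 100.3 to 1824 in HT and from 113 to 6077 in WT libraries. Their part in the differences below was not tested. Adnp itself had a median of 2190 normalized counts in HT libraries (1492 to 2845) and 1815 in WT libraries (1077 to 2290). Reads per gene do not tell its alleles apart, so the level does not check the genotype labels. In bulk tissue, fewer cells of a type and less RNA per cell cannot be told apart.

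**Figure D1:**
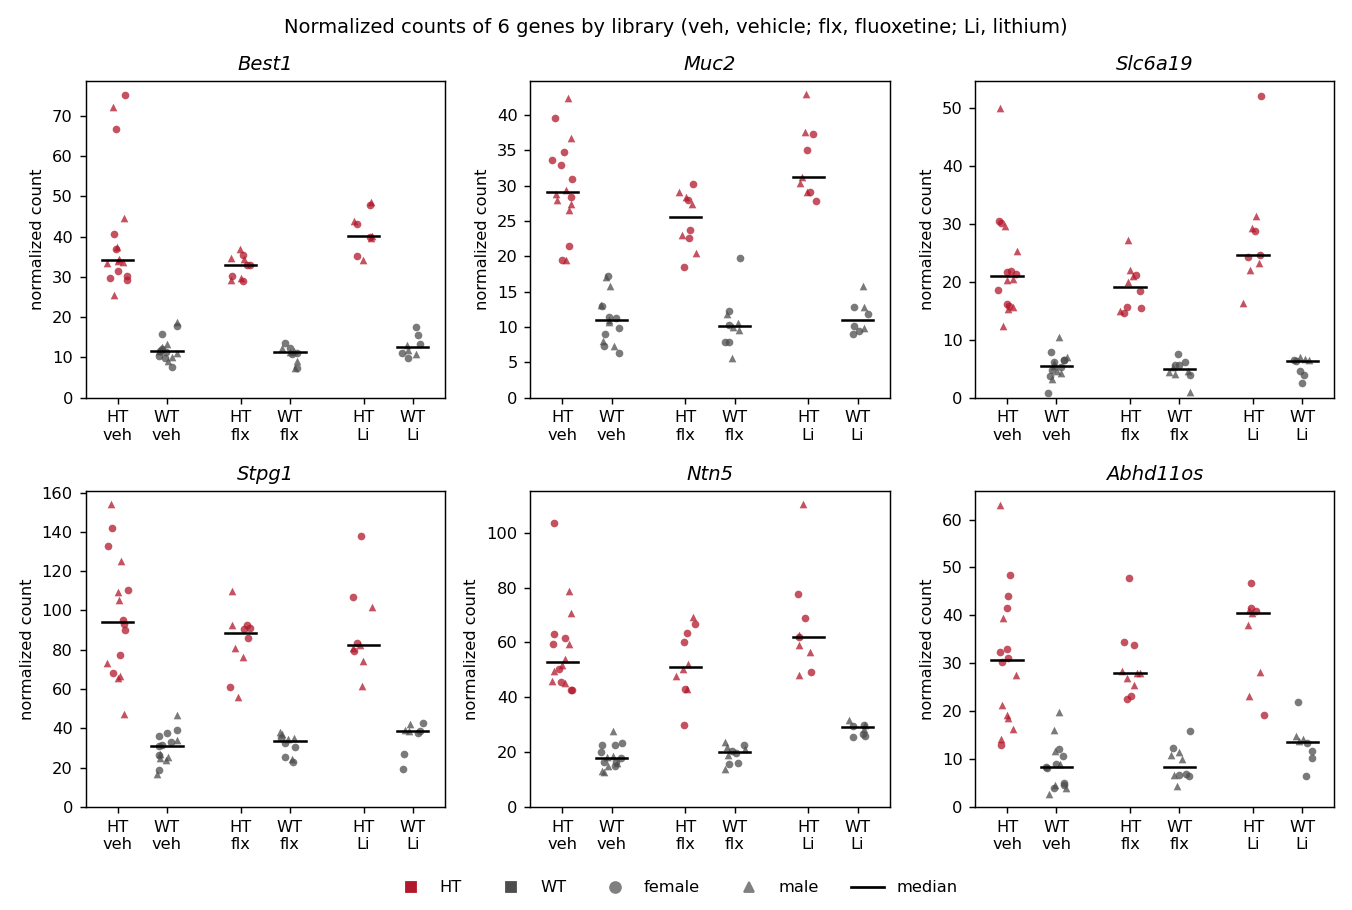
Normalized counts (y axis, from 0) of the 6 genes in the 68 libraries, with HT left of WT under vehicle (veh), fluoxetine (flx) and lithium (Li); circles are females, triangles males and bars medians. HT and WT libraries do not overlap in the panels of Best1, Slc6a19 and Stpg1, and overlap most in that of Abhd11os, where 7 HT libraries lie at or below the highest WT library.

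Best1, the chloride channel, had 25.5, 34.2 and 75.2 normalized counts in HT vehicle libraries (lowest, median and highest), against 7.59, 11.46 and 18.8 in WT vehicle libraries. Under fluoxetine it had 29.0, 32.9 and 36.9 in HT libraries and 7.25, 11.2 and 13.6 in WT libraries. Lithium libraries held 34.2, 40.1 and 48.5 in HT and 9.94, 12.5 and 17.6 in WT. The lowest HT library of all, a vehicle male, was above the highest WT library, also a vehicle male, so the genotypes did not overlap under any treatment. The log2 difference, HT minus WT, was 1.62 (SE 0.12) under vehicle, 1.55 (SE 0.15) under fluoxetine and 1.64 (SE 0.17) under lithium. All log2 values are of the normalized count plus 1, a scale that understates the change of low genes.

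Muc2, the intestinal mucin, had 19.4, 29.1 and 42.4 normalized counts in HT vehicle libraries, against 6.37, 11.02 and 17.2 in WT vehicle libraries. Under fluoxetine the values were 18.5, 25.6 and 30.3 in HT libraries and 5.56, 10.1 and 19.8 in WT libraries. Under lithium they were 27.9, 31.3 and 43.0 in HT libraries and 9.03, 10.98 and 15.8 in WT libraries. The genotypes were apart under vehicle and under lithium, while 1 WT fluoxetine female at 19.8 exceeded the lowest HT libraries, of which 3 in all lay at or below it. The log2 difference was 1.36 (SE 0.13) under vehicle, 1.23 (SE 0.16) under fluoxetine and 1.44 (SE 0.18) under lithium.

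Slc6a19, the amino acid carrier, was the lowest of the 6 in WT cortex and showed the largest difference of the 6 in each of the 3 treatments. HT vehicle libraries had 12.4, 20.9 and 49.9 normalized counts, against 0.819, 5.37 and 10.5 in WT vehicle libraries. HT fluoxetine libraries had 14.5, 19.1 and 27.2, and WT fluoxetine libraries 0.883, 4.87 and 7.55. With lithium there were 16.3, 24.6 and 52.1 in HT libraries and 2.55, 6.36 and 6.93 in WT libraries. The lowest HT library stayed above the highest WT library. WT values rest on 1 to 8 reads and HT values on 14 to 59, so WT levels carry wide counting error. The log2 difference was 1.88 (SE 0.18) under vehicle, 1.85 (SE 0.22) under fluoxetine and 2.10 (SE 0.24) under lithium.

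Stpg1, the most abundant of the 6 by reads, had 47.5, 94.0 and 154 normalized counts in HT vehicle libraries and 17.04, 30.9 and 47.0 in WT vehicle libraries. Fluoxetine libraries held 56.1, 88.4 and 109.8 in HT and 22.7, 33.5 and 38.1 in WT. In lithium libraries it stood at 61.7, 82.4 and 138 in HT and at 19.6, 38.7 and 42.7 in WT. The genotypes did not overlap, but the margin under vehicle was thin, with 1 HT male at 47.5 beside 1 WT male at 47.0. The log2 difference was 1.64 (SE 0.13) under vehicle, 1.38 (SE 0.16) under fluoxetine and 1.29 (SE 0.18) under lithium.

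Ntn5, the netrin, had 42.6, 52.9 and 103 normalized counts in HT vehicle libraries and 12.7, 17.9 and 27.7 in WT vehicle libraries. HT fluoxetine libraries stood at 29.9, 51.1 and 69.5, against 13.9, 20.2 and 23.6 in WT fluoxetine libraries. HT lithium libraries stood at 48.3, 61.9 and 111, against 25.5, 29.0 and 31.7 in WT lithium libraries. Within each treatment the genotypes were apart, and across treatments 1 HT fluoxetine female lay below 1 WT lithium male. The log2 difference was 1.59 (SE 0.12) under vehicle, 1.37 (SE 0.14) under fluoxetine and 1.13 (SE 0.16) under lithium.

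Abhd11os, the RNA beside Abhd11, had 12.9, 30.7 and 63.0 normalized counts in HT vehicle libraries and 2.62, 8.40 and 19.8 in WT vehicle libraries. Fluoxetine libraries had 22.6, 28.1 and 47.8 in HT and 4.33, 8.40 and 15.8 in WT. Lithium libraries had 19.2, 40.5 and 46.8 in HT and 6.47, 13.6 and 21.9 in WT. The genotypes overlapped under vehicle and under lithium and were apart under fluoxetine. The log2 difference was 1.76 (SE 0.20) under vehicle, 1.65 (SE 0.25) under fluoxetine and 1.33 (SE 0.28) under lithium.

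Across all 68 libraries, Best1, Slc6a19 and Stpg1 were higher in every HT library than in every WT library, as were 9 of the 17922 genes tested (0.0502%). The other 6 of those 9 were the collagen VI chain Col6a2, the cell cycle regulator E2f2, Pcdhga11, Prss50, Spef2 and B230206L02Rik, named after their values were seen. Among vehicle libraries 5 of the 6 members did not overlap, all but Abhd11os, where 0.128% of genes did not overlap with HT higher. Fluoxetine libraries kept 5 of 6 apart, all but Muc2 (0.279% of genes), and lithium libraries 5 of 6, all but Abhd11os (0.446% of genes). Since the genes were chosen for being higher in HT libraries, nothing is read from these counts. Split further by sex, the 6 genes give 36 comparisons of HT with WT. The ratio of means, HT over WT, lay between 2.004 (Stpg1 in lithium males) and 6.84 (Slc6a19 in lithium females) in those 36. Ordered by size among all genes tested, the 6 differences ranked between 6 and 27 under vehicle, 5 and 29 under fluoxetine, and 8 and 60 under lithium. High ratios and ranks follow from the choice of genes, so they too are a description only.

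**Figure D2:**
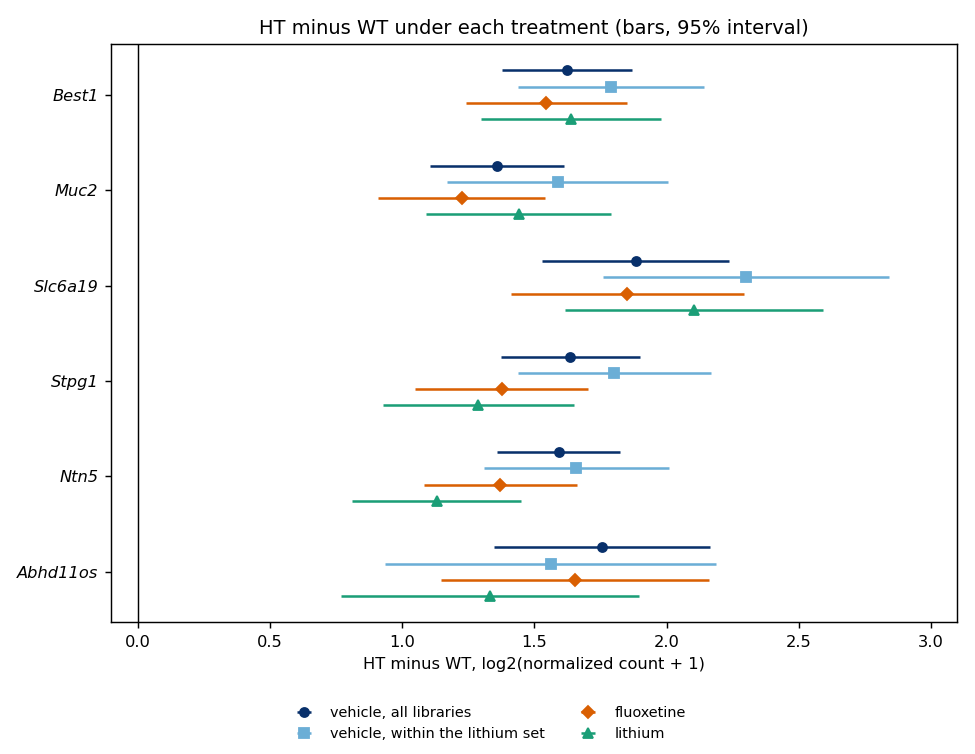
Differences HT minus WT in log2(normalized count + 1) (x axis) for each gene under vehicle, fluoxetine and lithium, and under vehicle within the lithium set of libraries; points are fitted values and bars 95% intervals. Differences lie between 1.13 (Ntn5, lithium) and 2.30 (Slc6a19, vehicle within the lithium set).

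Libraries of this series fell into 3 sets by pseudogene levels that the labels do not name, found here from 360 pseudogenes without Abhd11os. The fluoxetine set (28 libraries) joined every fluoxetine library with 8 HT vehicle ones. The lithium set (28) joined every lithium library with 6 HT and 5 WT vehicle libraries, and the WT vehicle set (12) held 2 HT vehicle males and 10 WT vehicle libraries. Within the lithium set the vehicle differences between HT and WT were 1.79 (SE 0.18) for Best1, 1.59 (SE 0.21) for Muc2, 2.30 (SE 0.27) for Slc6a19, 1.80 (SE 0.18) for Stpg1, 1.66 (SE 0.18) for Ntn5 and 1.56 (SE 0.31) for Abhd11os. Among vehicle males of the WT vehicle set (2 HT, 5 WT) they were 1.56, 1.31, 1.58, 1.22, 1.70 and 1.28 in the same order of genes. Inside the lithium set the difference was thus larger than over all vehicle libraries for 5 of the 6, Abhd11os being the exception, and among males of the WT vehicle set it was smaller for 5, Ntn5 being the exception.

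The members' levels also differed between sets within 1 genotype and treatment. The choice of genes did not compare sets, but the HT values below were among those it used. Best1 averaged 55.5 ± 17.8 normalized counts in the 6 HT vehicle libraries of the lithium set and 31.7 ± 4.44 in the 8 of the fluoxetine set (SD). By limma the log2 difference was 0.74 (SE 0.16, adjusted p = 0.0052). Stpg1 was 128 ± 18.6 in the lithium set and 84.1 ± 15.2 in the fluoxetine set (log2 difference 0.62, limma adjusted p = 0.033). Ntn5 was 72.8 ± 16.6 and 48.2 ± 5.93 in those sets (0.57, limma adjusted p = 0.043). Slc6a19 (0.85, adjusted p = 0.053), Abhd11os (0.46) and Muc2 (0.36) did not pass in limma. Thus 3 of the 6 passed where 1.62% of all genes did. Since high HT values entered the choice of genes, nothing is read from this share, and the p-values of this paragraph are a description only.

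In WT vehicle libraries, 4 of the 6 were higher in the lithium set (n = 5) than in the WT vehicle set (n = 10), where 42.4% of all genes passed in either direction. Abhd11os was 11.8 ± 6.15 in the lithium set and 7.06 ± 3.42 in the WT vehicle set (log2 difference 0.76, limma adjusted p = 0.025). Best1 was 14.7 ± 3.42 and 10.9 ± 2.20 in those sets (0.41, limma adjusted p = 0.033). Ntn5 (0.40, adjusted p = 0.035) and Stpg1 (0.40, adjusted p = 0.044) passed as well in limma. Slc6a19 (0.12) and Muc2 (-0.06) did not. The sets were found from these same libraries, which favours differences between them, and what separates the sets was not tested.

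**Figure D3:**
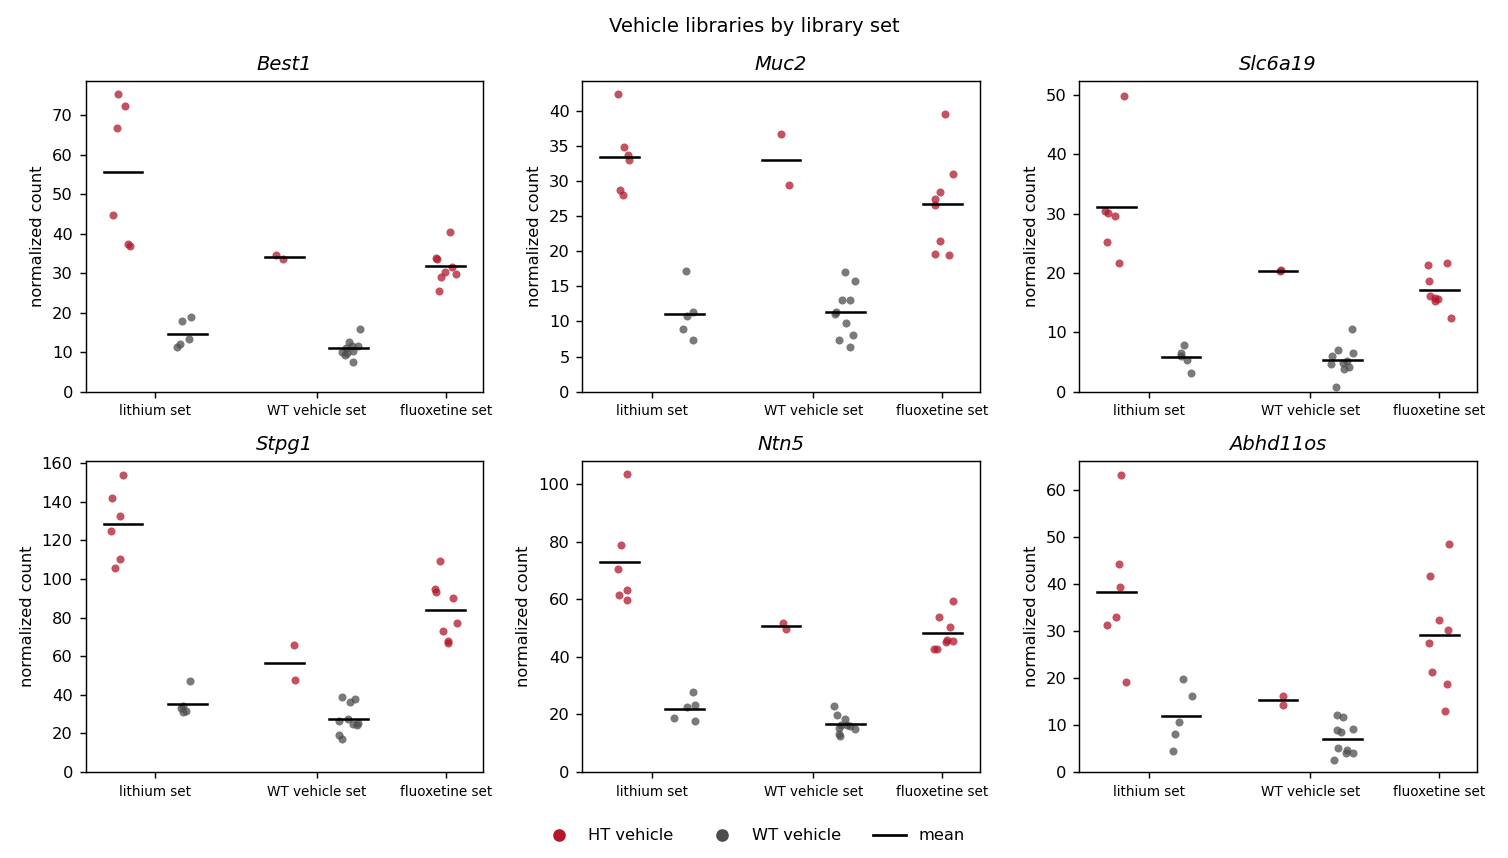
Normalized counts (y axis, from 0) of the 6 genes in vehicle libraries by library set, HT left of WT, with bars at means; the fluoxetine set holds no WT vehicle library. HT libraries of the lithium set average 55.5 for Best1 and 128 for Stpg1, above the fluoxetine set at 31.7 and 84.1, and in each set HT lies above WT except for overlaps of Abhd11os.

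Under fluoxetine, an inhibitor of serotonin reuptake, none of the 6 genes passed in either genotype. In HT libraries, where 1.22% of all genes passed, the differences from vehicle ran between -0.25 for Best1 (95% interval -0.52 to 0.03) and 0.06 for Abhd11os (-0.40 to 0.52). Within the fluoxetine set, which holds 8 HT vehicle libraries, they ran between -0.04 for Muc2 and 0.18 for Slc6a19, with 0 of 6 passing where 0.167% of genes did. In WT libraries, where 5.43% of genes passed, they ran between -0.17 for Best1 (-0.45 to 0.11) and 0.16 for Abhd11os (-0.30 to 0.62). No set holds both fluoxetine and vehicle libraries of WT, so drug and set cannot be told apart there. The interval of Best1 in HT reaches down to 0.695 times the vehicle level and that of Slc6a19 to 0.664 times, and smaller effects were not detectable. The difference of the fluoxetine effects between genotypes passed for 0 of 6 and for 0% of all genes by limma (2187 genes had an unadjusted p under 0.05, and edgeR called 1), with values between -0.26 for Stpg1 and -0.03 for Slc6a19.

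Lithium, a mood stabilizer and kinase inhibitor, gave no passing change of the 6 in HT libraries, where 1.52% of genes passed. Differences ran between -0.06 for Stpg1 (-0.37 to 0.24) and 0.32 for Slc6a19 (-0.09 to 0.73). Within the lithium set none passed either, against 0.162% of genes, and the values were then below 0 for all 6, from -0.51 for Stpg1 (adjusted p = 0.16 in limma) to -0.01 for Muc2. The direction in HT thus turned with the vehicle libraries used for 5 of the genes, Best1, Muc2, Slc6a19, Ntn5 and Abhd11os.

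In WT libraries 2 of the 6 passed under lithium, where 36.1% of all genes did. Ntn5 rose to 28.5 ± 2.17 normalized counts under lithium (n = 8), against 18.4 ± 4.19 under vehicle (n = 15), a log2 difference of 0.65 (SE 0.14, limma adjusted p = 4.4e-04). Abhd11os rose to 13.3 ± 4.39, against 8.64 ± 4.87 under vehicle (0.70, SE 0.25, limma adjusted p = 0.025). Neither passed within the lithium set: Ntn5 stood at 0.37 (adjusted p = 0.35 in limma) and Abhd11os at 0.16 (adjusted p = 0.90), where 0.664% of genes passed. The remaining 4 lay between 0.07 for Best1 and 0.28 for Stpg1 over all WT libraries. Abhd11os lost its call when any of 4 libraries was left out (WT lithium female 4, males 1 and 2, and WT vehicle male 3; highest adjusted p 0.065) and by edgeR (adjusted p = 0.074). Ntn5 kept its call in all 23 such repeats and by edgeR (adjusted p = 0.0011). The difference of the lithium effects between genotypes passed for 0 of 6 and for 2.80% of all genes. It was -0.46 for Ntn5 (95% interval -0.86 to -0.07, limma adjusted p = 0.16), so a smaller lithium effect of Ntn5 in HT was not shown.

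**Figure D4:**
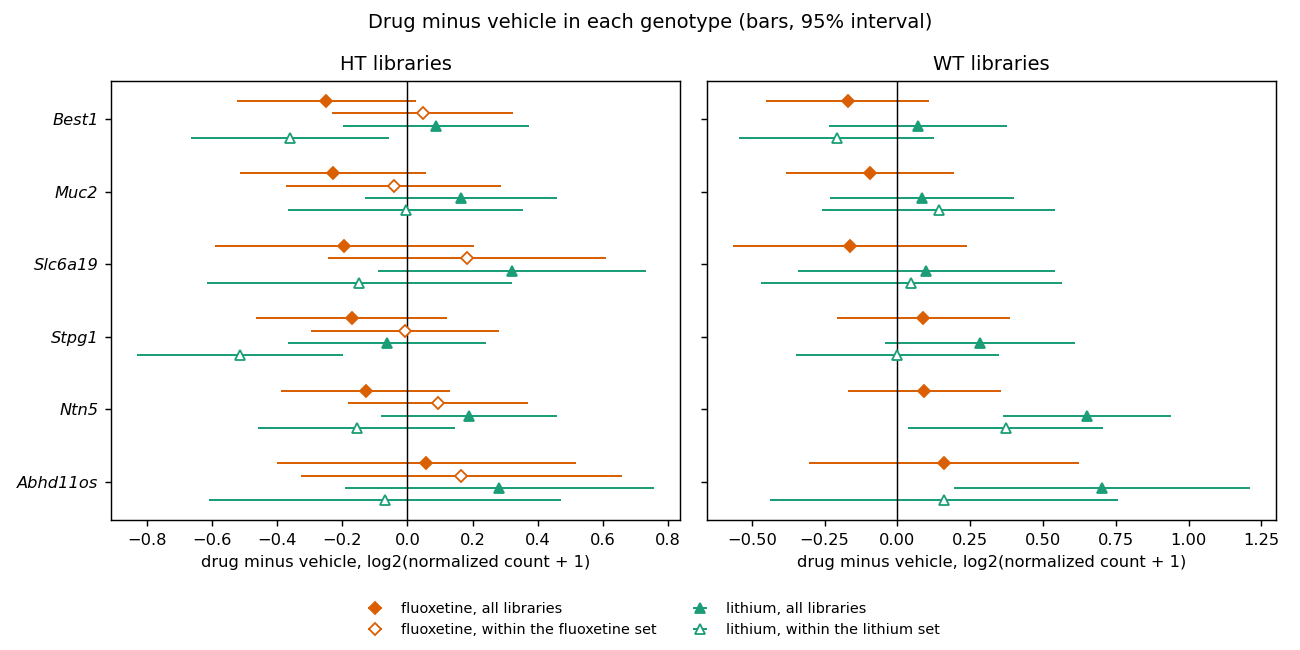
Differences drug minus vehicle in log2(normalized count + 1) (x axis) for the 6 genes in HT libraries (left) and WT libraries (right); filled points use all libraries, open points libraries of 1 set, and bars are 95% intervals. In WT libraries Ntn5 (0.65) and Abhd11os (0.70) stand above 0 under lithium over all libraries, and within the lithium set lie at 0.37 and 0.16.

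Sex made no passing difference. Male minus female, averaged over genotypes and treatments, lay between -0.07 for Abhd11os and 0.05 for Muc2, and 0.100% of all genes passed. The genotype difference of males minus that of females under vehicle passed for 0 of 6 and for 0% of all genes by limma (662 had an unadjusted p under 0.05). It was -0.51 for Abhd11os (95% interval -1.33 to 0.31) and between -0.18 and 0.16 for the others, so a difference between sexes of this size was not detectable. None passed within the lithium set either, with 2 or 3 vehicle libraries per sex and genotype, but the values were larger and 4 changed sign: Slc6a19 stood at 0.90, Muc2 at 0.35, Ntn5 at -0.20, Stpg1 at -0.33, Best1 at -0.42 and Abhd11os at -1.15.

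The genes that flank the 6 were tested, since the choice did not name them: the 2 nearest tested genes on each side, 24 in all. Sec1, Nipal3 and Abhd11, all among those higher under vehicle, share exon bases with a member. Their values are thus not independent of the choice. Under vehicle 7 were higher in HT libraries and 1 was lower, a share to be read against 15.0% of all genes. Their median difference was 0.08 under vehicle (median of all genes -0.0055), 0.03 under fluoxetine (-0.0018) and -0.0064 under lithium (0.0019). Under fluoxetine 1 was higher and 1 lower (1.98% of all genes passed), and under lithium 1 was higher (2.51%). Within the lithium set 1 of the 24 passed under vehicle, where 0.536% of all genes did. Most neighbours thus did not pass, and those that did are described next.

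Sec1, which encodes a fucosyltransferase, overlaps Ntn5 on the opposite strand (chromosome 7, 45677686 to 45694402) and shares 519 exon bases with it. It averaged 23.7 ± 5.17 normalized counts in HT vehicle libraries and 10.6 ± 3.80 in WT vehicle libraries. Its log2 difference was 1.14 under vehicle (limma adjusted p = 3.1e-08), 0.95 under fluoxetine (adjusted p = 5.0e-04) and 0.69 under lithium (adjusted p = 0.046). Within the lithium set it was 1.09 under vehicle (limma adjusted p = 0.013), the 1 neighbour to pass there. Whether the counting used strand is not stated in these sources, so reads of Ntn5 and Sec1 cannot be told apart in their shared exons. The p-values of Sec1 are therefore not independent of the choice of Ntn5.

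Tert, the catalytic subunit of telomerase and a neighbour of Slc6a19, was lower, at 29.9 ± 7.71 normalized counts in HT vehicle libraries against 46.3 ± 11.5 in WT vehicle libraries. Its difference was -0.62 under vehicle (limma adjusted p = 4.6e-04), -0.76 under fluoxetine (adjusted p = 0.0012) and -0.41 under lithium (adjusted p = 0.22). Nkd2, an inhibitor of Wnt signalling on the other side of Slc6a19, averaged 176 ± 38.0 in HT vehicle libraries and 116 ± 34.3 in WT vehicle libraries (0.61, limma adjusted p = 7.1e-05). It did not pass under fluoxetine (0.43, adjusted p = 0.087) or lithium (0.46, adjusted p = 0.087), but did in the fit with library sets (adjusted p = 0.048 and 0.046). Under vehicle neither passed within the lithium set, with Nkd2 at 0.67 (limma adjusted p = 0.060) and Tert at -0.64 (adjusted p = 0.15). Slc12a7, the gene nearest to Slc6a19 on that side, stood at -0.02 and did not pass. Clptm1l, the gene beyond Tert, stood at 0.06 under vehicle and did not pass either. The flanks of Slc6a19 thus held a lower gene, a higher gene and others that did not pass.

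Rab3il1, whose start lies 36 bases from that of Best1 on the opposite strand, had 329 ± 26.8 normalized counts in HT vehicle libraries and 322 ± 30.3 in WT vehicle libraries. Its difference was 0.03 under vehicle, 0.0074 under fluoxetine and 0.05 under lithium, none of which passed, although the promoter window printed above for Best1 holds its start too. Fth1, the ferritin heavy chain at the other end of Best1, also did not pass (0.13, 0.09 and -0.13). Abhd11, a mitochondrial hydrolase that shares 62 exon bases with Abhd11os, was higher by 0.12 under vehicle (limma adjusted p = 0.030) and stood at -0.05 and -0.03 under the drugs. Nipal3, which shares 228 exon bases with Stpg1, was higher by 0.19 under vehicle (limma adjusted p = 0.024). The other higher neighbours under vehicle were Mamstr (0.32), Ap2a2 (0.21) and Incenp (0.13), and none of these passed under a drug or within the lithium set.

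**Figure D5:**
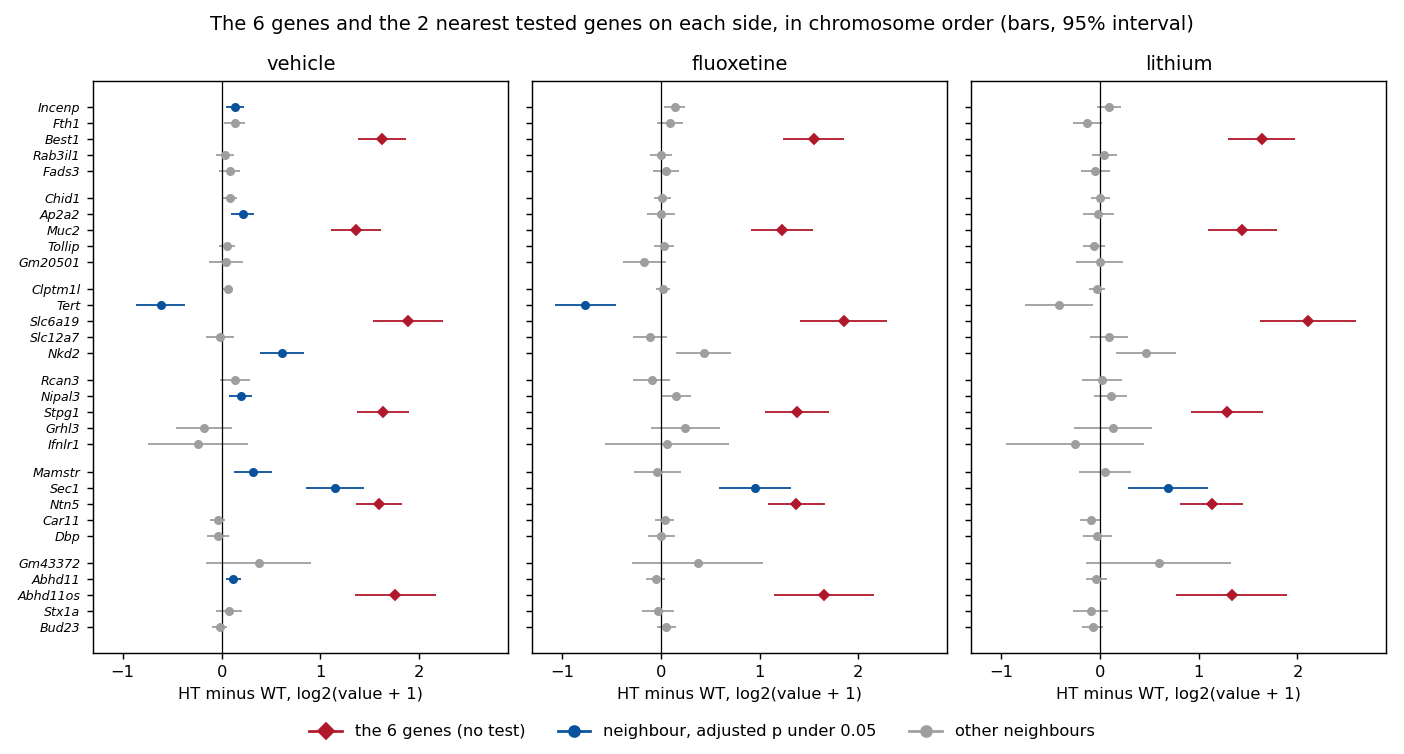
Differences HT minus WT in log2(value + 1) (x axis) for the 6 genes (diamonds) and the 2 nearest tested genes on each side in chromosome order (circles), under each treatment; bars are 95% intervals and blue marks an adjusted p under 0.05. Neighbours lie between -0.76 (Tert, fluoxetine) and 1.14 (Sec1, vehicle), below the diamond of their own member in every panel.

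Genes related to the 6 were read from lists, over all libraries. Under vehicle, genotype and library set were partly mixed, since the WT vehicle set held 10 WT and 2 HT libraries. Over all genes 2680 passed under vehicle, and 96 within the lithium set, which holds fewer vehicle libraries. Values of list genes within sets are not given here, so set and genotype are not separated in their vehicle calls. The list of SLC6 transporters, 15 of 21 tested, held 2 higher genes under vehicle, 1 under fluoxetine and 1 under lithium, and none lower. Slc6a16, an orphan transporter, lies on chromosome 7 (45241085 to 45273367, plus strand), as does the member Ntn5 (45684022 to 45694556). Whether its position or its family matters here was not tested. Slc6a16 rose in HT under all treatments. It averaged 25.3 ± 4.58 normalized counts in HT vehicle libraries and 14.9 ± 4.08 in WT vehicle libraries (log2 difference 0.74, limma adjusted p = 1.7e-06). Under fluoxetine the difference was 0.72 (adjusted p = 4.3e-04) and under lithium 0.84 (adjusted p = 2.8e-04) in limma. The proline transporter Slc6a7 was higher by 0.14 under vehicle (adjusted p = 0.018). Slc6a7 did not pass under fluoxetine (0.10) or lithium (0.01).

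The netrins and their receptors, all 13 tested, had 1 higher and 2 lower genes under vehicle, 1 lower under fluoxetine and 1 higher under lithium. The guidance receptor Unc5a was higher by 0.27 under vehicle (limma adjusted p = 0.032), and Unc5d (-0.19, adjusted p = 0.0049) was lower. Dcc, the main netrin receptor of axons, was lower under vehicle (-0.12, limma adjusted p = 0.041) and higher under lithium (0.28, adjusted p = 0.0020). Ntn3 was lower under fluoxetine (-0.24, limma adjusted p = 0.035).

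Of the chloride channels, 11 of 13 tested, Ano3 was lower by 0.16 under vehicle (limma adjusted p = 0.045), and none passed under a drug. None of the 3 tested mucins of 12 listed passed under any treatment. Sperm tail genes, 8 of 17 tested, had 1 passing member. Akap3, an anchor protein of the sperm fibrous sheath, stood at 10.3 ± 2.30 normalized counts in HT vehicle libraries and 5.69 ± 2.33 in WT vehicle libraries (0.81, limma adjusted p = 7.5e-04), and did not pass under fluoxetine (0.37) or lithium (0.45). Genes of the region deleted in Williams syndrome, where Abhd11os lies, had 19 of 23 tested, and 3 were higher under vehicle only: Abhd11 (0.12), Eif4h (0.17) and Clip2 (0.16). Under vehicle 15.0% of all genes passed, and nothing particular to these families is read from their counts. The family medians lay between -0.10 and 0.18 over the 3 treatments.

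Markers of tissues in which some of these genes are known were counted as well. Of all genes, 15.0% passed under vehicle, 1.98% under fluoxetine and 2.51% under lithium, so few calls are due in lists this short. These calls also use all libraries, and under vehicle they do not separate genotype from library set. Of 12 markers of retinal pigment epithelium 8 were tested and none passed under any treatment. Their summed level ran from 737 to 1233 normalized counts in HT vehicle libraries and from 766 to 1331 in WT vehicle libraries. It reached 2483 in 1 HT fluoxetine library and 6337 in 1 WT lithium library. This list shares Ttr and Otx2 with the choroid plexus list below, so the 2 lists are not independent and their sums are not particular to retina. Of 9 goblet cell markers only Fcgbp was tested, at a mean of 9.65 in HT and 7.48 in WT vehicle libraries, and it did not pass. Brush border markers had 5 of 15 tested and none passed, with sums of 265 to 397 in HT vehicle libraries and 243 to 446 in WT vehicle libraries. Photoreceptor markers had 4 of 8 tested and none passed, with sums of 52.9 to 118 in HT vehicle libraries and 58.5 to 121 in WT vehicle libraries. Ciliated and ependymal markers had 6 of 8 tested and none passed. Choroid plexus markers had 7 of 8 tested, and Kl was lower under vehicle (-0.78, limma adjusted p = 0.0075). Their sums ran from 100.3 to 532 in HT vehicle libraries and from 137 to 638 in WT vehicle libraries, and reached 1824 in 1 HT fluoxetine library and 6077 in 1 WT lithium library.

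Of the cell types of cortex and its surroundings, astrocytes had 2 lower markers of 4 under vehicle, Aqp4 (-0.29, limma adjusted p = 0.0048) and Slc1a3 (-0.15, adjusted p = 0.0093). No marker of cortical neurons (6), oligodendrocytes (4), microglia (4), endothelium (4), striatal neurons (6), olfactory bulb (5) or meninges (5) passed under any treatment. Not passing does not show equal content in lists as variable as the striatal and olfactory bulb ones. The median difference of the striatal markers was 0.20 under vehicle, 0.08 under fluoxetine and 0.75 under lithium. Their lithium sums ran from 2836 to 9969 in HT and from 2528 to 6624 in WT libraries. For the olfactory bulb markers the medians were 0.21, 0.38 and -0.13 in that order. The astrocyte calls use all vehicle libraries and do not separate genotype from library set. The part of astrocyte, striatal, olfactory bulb and choroid plexus content in the differences of the 6 genes was not tested.

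The genes most like the 6 over the 68 libraries were found by Pearson's r with the members' mean z-score, a description with no test. They were Col6a2 (r = 0.95, Spearman's rho = 0.91), the lysosomal mannosidase Man2b2 (0.95, rho = 0.91), E2f2 (0.94, rho = 0.90), Vstm5 (0.92, rho = 0.89), Smim1 (0.91, rho = 0.90) and the vesicle coat gene Sec24d (0.91, rho = 0.88). These values rest largely on the gap between genotypes. Within the 35 HT libraries r lay between 0.45 (Sec24d) and 0.65 (E2f2), and within the 33 WT libraries between 0.39 (E2f2) and 0.72 (Man2b2). Libraries of 1 set share more than their group, so these values do not rest on independent points.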

How the data were processed

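Normalized counts (signal values: reads per gene divided by 1 size factor per library) of 18088 genes in 68 libraries were taken from the table the authors deposited. Libraries came from a stranded kit for polyadenylated RNA, per the labels' protocols. The authors' tools were, per the submitters' processing notes, DESeq2 1.19.11, Salmon 0.11.2 and R 3.6.0 on GRCm38, with no roles stated. Whole reads could be recovered from the deposited signal (100% of values whole within 0.01), and libraries held 22.4M to 37.5M reads (median 30.7M). Gene positions came from GENCODE vM21 on GRCm38 (18077 genes matched) and promoters from RefSeq GRCm38.p6.

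The test was limma 3.58.1 (R 4.3.3, variance trend, robust shrinkage) applied to log2(value + 1), with all 12 groups in 1 fit, genes with a mean of at least 5 (17922, leaving out 166) and Benjamini-Hochberg adjustment over all of them. An adjusted p below 0.05 counted as passing. Contrasts average the sexes. The alternatives tried were pseudocounts of 0.5 and 5, no filter, equal totals, edgeR 4.0.16 on recovered reads, the replicate number as a block, a fit of group by library set, only the groups compared, and leaving out each library. Library sets came from average linkage on 1 minus r over 360 pseudogenes, cut into 3. The named genes were the 6 members, the nearest 2 tested genes on each side, list genes that passed in a genotype comparison (up to 4 per list and comparison) and the 6 genes most correlated with the members' mean z-score. The members, lists and tests were chosen with earlier results of these data known. The test code was checked on simulated counts. 1 gene of the SLC6 and brush border lists was left out of them and is not reported here.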

Additional observations from a re-analysis of the deposited data

Results flagged for a closer look

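Among 66 groups of 4 to 8 libraries examined for the 6 genes, 9 held a library whose gap to its nearest neighbour took an unusually large share of the group's range by Dixon's criterion. Chance flags about 1 in 20 groups. Best1 stood at 72.2 normalized counts in HT vehicle male 7, with the next library at 44.7. Slc6a19 stood at 52.1 in HT lithium female 2 (next 28.8), at 49.9 in HT vehicle male 6 (next 29.6) and at 0.883 in WT fluoxetine male 5 (next 3.99). Stpg1 was low at 61.0 in HT fluoxetine female 5 (next 86.2) and at 24.3 in WT fluoxetine male 1 (next 34.5). Ntn5 stood at 110.5 in HT lithium male 4 (next 62.8), at 103.4 in HT vehicle female 7 (next 63.1) and at 27.7 in WT vehicle male 7 (next 18.8). Leaving out each of these libraries in turn kept the difference between HT and WT at or above 1.04 for all 6 genes under the 3 treatments. That follows in part from the choice of genes and is a description only.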

How the results depend on the processing

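Every difference of the 6 genes between HT and WT kept its sign under all alternatives run, and leaving out 1 library kept them between 1.04 and 2.17. The genes were chosen for being higher in these same HT libraries, so a kept sign is a description and no support for the differences. With a pseudocount of 5 Slc6a19 moved to 1.37 under vehicle, 1.3 under fluoxetine and 1.60 under lithium, since a larger pseudocount shrinks low genes. Drug differences of the members changed sign in these cases. Within the fluoxetine set, fluoxetine in HT gave 0.048 for Best1, 0.18 for Slc6a19 and 0.093 for Ntn5. Within the lithium set, lithium in HT gave -0.36 for Best1, -0.0056 for Muc2, -0.15 for Slc6a19, -0.16 for Ntn5 and -0.069 for Abhd11os, and lithium in WT gave -0.21 for Best1 and -0.00025 for Stpg1. Abhd11os under fluoxetine in HT was -0.032 by edgeR and -0.032 to 0.15 with 1 library left out (below 0 without HT fluoxetine female 5 or HT vehicle female 3). Slc6a19 under lithium in WT was -0.018 to 0.18 with 1 library left out (below 0 without WT vehicle female 3). Abhd11os under lithium in WT did not pass with only the groups compared (adjusted p = 0.081 in limma). The cause was not tested.

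By correlation, replicate numbers did not pair libraries across groups. Over 313 same-number pairs the median r of deviations was -0.0051 (0.0040 in other pairs), and 23.0% exceeded 0.1. Of 68 libraries, 10 correlated best with their own number. The numbers did follow library set among vehicle libraries: 6 to 8 were all in the lithium set and 1 to 5 in the other sets. The block thus also carries library set, whose part in the counts below was not tested. With the replicate block, fluoxetine in HT called 398 genes, fluoxetine in WT 4003, lithium in HT 3746, fluoxetine by genotype 8 and lithium by genotype 1150. With the block Stpg1 (0.028) and Ntn5 (0.042) under fluoxetine in HT, Best1 (0.023) under fluoxetine in WT and Stpg1 (0.13) under lithium in HT changed sign. Ntn5 under lithium in HT (0.37, adjusted p = 0.032 in limma) and Stpg1 under lithium in WT (0.47, adjusted p = 0.0071) passed with the block.

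Counts over all genes moved more. Within library sets they were 96 for genotype under vehicle (2680 over all libraries), 805 for genotype under lithium (450), 30 for fluoxetine in HT (218), 29 for lithium in HT (273), 119 for lithium in WT (6478) and 0 for lithium by genotype by limma (502). With only the groups compared they were 858 for genotype under vehicle, 80 for fluoxetine in WT (974), 495 for lithium in HT, 4254 for lithium in WT and 1 for lithium by genotype, and edgeR called 1 gene for fluoxetine by genotype (0). With 1 library left out the counts ran from 1730 (without WT vehicle male 5) to 4155 (male 6) for genotype under vehicle and from 170 (WT lithium male 2) to 594 for genotype under lithium. They ran from 111 to 432 for fluoxetine in HT (HT fluoxetine female 2, HT vehicle female 4), from 338 to 1969 for fluoxetine in WT (WT fluoxetine female 2, WT vehicle male 6), from 61 to 379 for lithium in HT (lowest without HT lithium female 3), from 0 to 8 for fluoxetine by genotype (highest without WT vehicle male 7) and from 0 to 1492 for lithium by genotype (WT lithium male 2, WT vehicle male 6). None of the 6 genes passed for sex or for a difference of effects under any alternative. Levels of Slc6a19 in WT rest on 1 to 8 reads, which limits what a smaller drug effect there could show.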
